A study of Mus musculus with 4 samples.

Results

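The transcripts described here are Fzd5, Ctnnb1, Tcf7l1 and Axin2, 4 genes of the Wnt pathway, in a profile of RNA binding by eIF4A2 in mouse embryonic stem cells. Their members are 64 of the 47777 peaks deposited by the authors, 28 in the window of Fzd5, 17 in that of Ctnnb1, 14 in that of Tcf7l1 and 5 in that of Axin2. A peak is an interval of RNA enriched after recovery with the antibody. Members were chosen by position and strand in the deposited list, as peaks on the strand of the gene with their midpoint in a set mm9 window. The genes were picked with results of these data known, so the number of peaks in each window is a description and has no test. The windows were chr1:64775000-64786000 on the minus strand for Fzd5, chr9:120840000-120872000 on the plus strand for Ctnnb1, chr6:72574000-72742000 on the minus strand for Tcf7l1, and chr11:108779000-108815000 on the plus strand for Axin2.

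The cells were mESC J1, of strain 129S4/SvJae, grown feeder-free with serum and leukemia inhibitory factor and crosslinked with ultraviolet light. All 4 libraries came from such cells: 2 were recovered with an antibody against eIF4A2 (IP) and 2 were input, and the labels describe the replicates as biological. The authors deposited 1 list that gives each peak the log2 ratio of IP to input (its log2 fold). This list has no values for the single libraries, and no reads were analysed here. The spread between replicates and the depth are therefore unknown here, no error can be given for any fold, and intervals below cover counting error over peaks only.

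In the canonical Wnt pathway, a secreted ligand binds a Frizzled receptor and its co-receptor at the cell surface. This stops a destruction complex, built on Axin proteins, from marking beta-catenin for degradation, and beta-catenin then enters the nucleus and acts through TCF/LEF factors. Wnt signalling supports self-renewal of mouse embryonic stem cells, in which Tcf7l1 is a repressor of pluripotency genes that beta-catenin relieves. eIF4A2 is a DEAD-box helicase, and helicases of the eIF4A family are known for unwinding structure in the 5′ untranslated region (UTR) of mRNAs during translation initiation.

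Members were chosen on the strand of the gene, and the opposite strand held 0 peaks in each of the 4 windows. The list averages 18.1 peaks per Mb over both strands, and the windows are 11 to 168 kb long, so 0 says little for any of them. The chromosome and strand of each window were those of the gene in GENCODE M21, an annotation of GRCm38. No annotation or sequence of mm9 was at hand, so the identity of the genes rests on the windows. Exons and introns under the peaks were therefore considered by length only, and no sequence is printed. Other genes of the pathway (ligands, other Frizzled receptors, Dishevelled and further destruction complex genes) were not analysed here for the same reason.

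Fzd5 carried the most peaks in the shortest window, and Tcf7l1 the fewest per kb in the longest. Fzd5 had 2.55 peaks per kb of window (exact Poisson 95% interval 1.69 to 3.68). Ctnnb1 had 0.531 per kb (0.309 to 0.851), Axin2 had 0.139 (0.0451 to 0.324) and Tcf7l1 had 0.0833 (0.0456 to 0.14). Peaks of a transcript share their source and are not independent, so these intervals are too narrow. The genes were chosen with the counts known, and no difference in density is read from them.

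The median log2 fold was 2.17 for Fzd5 (4.49-fold; binomial 95% interval of the median over peaks 1.95 to 2.42) and 1.95 for Ctnnb1 (3.85-fold; 1.54 to 2.3). It was 1.64 for Tcf7l1 (3.11-fold; 1.24 to 2.05) and 2.15 for Axin2 (4.43-fold), whose 5 peaks ranged from 1.38 to 2.36. These ranges all overlapped, and no difference in fold between the genes was shown. Over the whole list it was 1.65, with an interquartile range of 1.29 to 2.07. Of the 28 Fzd5 peaks, 27 lay above the list median, as did 11 of 17 for Ctnnb1, 7 of 14 for Tcf7l1 and 4 of 5 for Axin2. Together this was 49 of 64 peaks, where 49% of the list lies above its own median because values recur. Of the 64 peaks, 30 were at 4-fold or more (a log2 fold of 2), or 46.9% (Wilson 95% interval 35.2 to 58.9%), beside 28.3% of the list. By gene this was 17 peaks for Fzd5, 7 for Ctnnb1, 3 for Tcf7l1 and 3 for Axin2. Without Fzd5 the share was 36.1%, or 13 of 36. Peaks of a transcript are not independent, so the intervals of the medians and of the share are too narrow as well. The genes were picked with results of these data known, and no enrichment over the list is read from the share. Enrichment of 8-fold or more (a log2 fold of 3) was found for 5 of the 64, beside 4.03% of the list: 1 peak in Fzd5, 3 in Ctnnb1, 1 in Tcf7l1 and 0 in Axin2. Folds overlapped widely between the genes, as the plot of every peak by transcript shows.

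**Figure D1:**
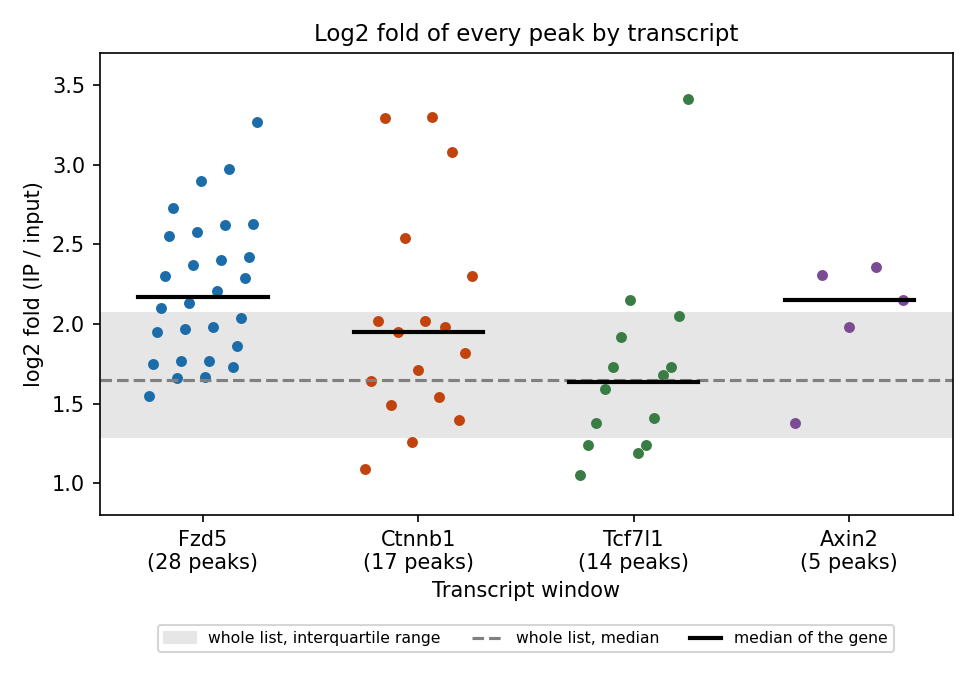
Log2 ratio of IP to input (y axis) of the 64 peaks (points), by transcript window (x axis), with the median of each gene (black lines) and the median and interquartile range of all 47777 peaks (dashed line and grey band). The Fzd5 median of 2.17 and the Axin2 median of 2.15 lie above the grey band, and the Tcf7l1 median of 1.64 lies at the list median of 1.65.

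Fzd5 encodes Frizzled 5, a membrane receptor for Wnt ligands. Its 28 peaks formed a single chain at chr1:64781393-64784251, 2859 bases long, in which no gap exceeded 301 bases. Joining peaks on one strand across gaps of up to 1000 bases divides the list into 31595 stretches, and the Fzd5 chain ranked 8 among them by number of peaks. Peaks covered 1387 bases, or 48.5% of the chain, and 7 of the 27 neighbouring pairs touched end to end. When set among the 172 stretches with at least 10 peaks, it ranked 28 by share covered and 40 by median fold. Peaks were 10 to 86 bases wide, with a median of 49.5 bases, beside 32 bases for the list. Touching peaks may be pieces of 1 longer interval, and merging peaks no more than 50 bases apart left 12.

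Along the Fzd5 RNA the fold rose and fell more than once. The 7 peaks at the 5′ end, at chr1:64783726-64784251, had log2 folds of 1.77 to 2.4. After the widest gap, the next 4 peaks from the 5′ side held the highest values, 2.58, 2.9, 2.97 and 3.27. The last of these, at chr1:64783255-64783277, was 23 bases wide and 9.61-fold enriched, at or above 98% of the list. A peak at 2.29 followed, and then a run of 4 peaks that began 1313 bases from the 5′ end of the chain, with values of 1.67 to 1.86, all under 4-fold. The peak after them, at 2.1, touched the last of the run. The lowest Fzd5 value, 1.55, was that of a 20-base peak at chr1:64782426-64782445. The fold was again above 4-fold in the next 3 peaks, with log2 values of 2.42, 2.73 and 2.62. The remaining 7 peaks ran through 1.77, 1.98, 2.21, 2.55, 2.63 and 1.95 to 1.66 at the 3′ end. These runs were singled out after their values were seen, and without an error for each fold it is unknown which of the steps exceed the spread between replicates.

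Ctnnb1 encodes beta-catenin, the protein that carries the signal to the nucleus and also links cadherins to the cytoskeleton. Its peaks fell into a group at the 5′ end with higher folds and scattered peaks further on, most with lower folds. The first 6 peaks lay within 714 bases, at chr9:120842618-120843331, with log2 folds of 2.02, 2.3, 3.08, 3.3, 3.29 and 2.54 from 5′ to 3′. All 6 were at 4-fold or more, and their median was 2.81. The highest, at chr9:120842945-120843001, was 57 bases wide and 9.84-fold enriched, at or above 98.1% of the list.

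A single peak at chr9:120850749-120850779 followed after 7417 bases, with a log2 fold of 1.09, the lowest in Ctnnb1. The other 10 peaks began after a further 8511 bases and were spread over 9.24 kb, at chr9:120859291-120868527. The first 3 of these touched end to end, with log2 folds of 2.02, 1.98 and 1.54. The rest had 1.71, 1.95, 1.82, 1.26, 1.64, 1.4 and 1.49 in order along the strand. Of the 11 peaks after the 5′ group, 1 reached 4-fold, and their median of 1.64 was close to that of the list. The values of the 5′ group and of the other peaks overlapped only at their ends, since the lowest of the first and the highest of the second were both 2.02 after rounding. This contrast was described after the values were seen. Without an error for each fold, whether it exceeds the spread between replicates was not tested.

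Tcf7l1 encodes the TCF/LEF factor also known as Tcf3, which binds DNA and represses its targets in embryonic stem cells. Its 14 peaks were spread over 106 kb, and 9 of the 13 gaps between them were wider than 1000 bases. Only at the 5′ end did peaks lie close together. There 5 peaks occupied 1.2 kb at chr6:72737832-72739028, with log2 folds of 1.73, 2.15, 1.59, 1.73 and 1.19 from 5′ to 3′. The remaining 9 peaks each stood alone, with values of 1.92, 1.68, 1.05, 2.05, 1.38, 1.41, 1.24, 1.24 and 3.41.

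The last of these was the most enriched of all 64 peaks. It lay at chr6:72633289-72633305, was 17 bases wide, and at 10.6-fold was at or above 98.7% of the list. It stood 26406 bases from the nearest other Tcf7l1 peak. The 8 isolated peaks before it ranged from 1.05 to 2.05, so the 3′-most peak was the exception among them.

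Axin2 encodes a scaffold of the destruction complex that is itself a target of Wnt signalling and acts in negative feedback. Its 5 peaks lay within 4004 bases at the 5′ side of the window. They were at chr11:108782218-108782226 with a log2 fold of 1.38, chr11:108782406-108782452 with 2.31, chr11:108783149-108783168 with 2.15, chr11:108783672-108783702 with 2.36, and chr11:108786179-108786221 with 1.98. Thus 3 of 5 reached 4-fold, and the first peak, 9 bases wide, was the weakest. The 28.8 kb of window after the last peak held none.

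**Figure D2:**
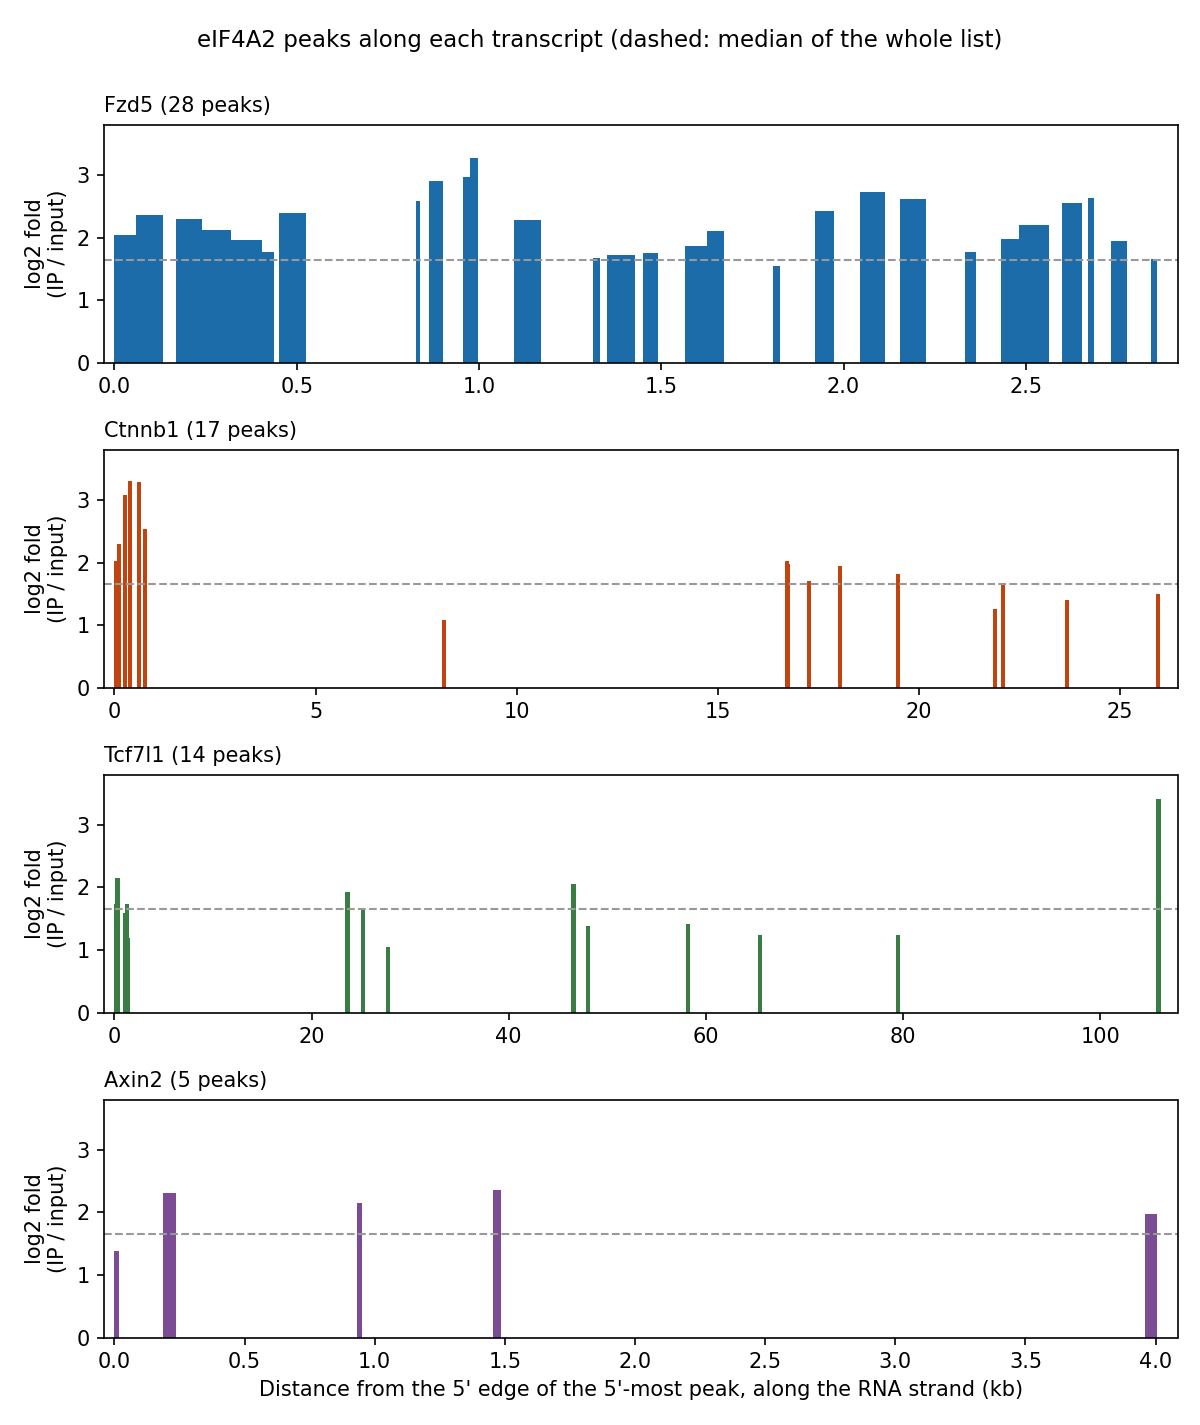
Log2 ratio of IP to input (y axis) of each peak against its distance in kb from the 5′ edge of the 5′-most peak along the RNA strand (x axis, a different scale in each panel). Bars have the width of the peak, or a fixed minimum width in each panel where the peak is narrower, and the dashed line is the list median of 1.65. Fzd5 peaks are spread through 2.86 kb and cover 48.5% of it, Ctnnb1 is highest in the first 714 bases, and the highest Tcf7l1 peak is the last.

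The first peak began 1749 bases from the 5′ edge of the window in Fzd5, 2618 bases in Ctnnb1, 2972 bases in Tcf7l1 and 3218 bases in Axin2. The 25% of the window nearest to the 5′ edge held 6 of 17 peaks for Ctnnb1, 8 of 14 for Tcf7l1 and 5 of 5 for Axin2, beside 11 of 28 for Fzd5. The windows are rounded and their edges are not the ends of the genes, so these are not distances from a transcription start. The same share was not measured for other transcripts of the list, so no common trait is read from these positions. The 3′ part of the window was free of peaks for 59.3 kb in Tcf7l1, 6.39 kb in Fzd5 and 3.47 kb in Ctnnb1.

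Peaks just outside the windows were far away, except for Tcf7l1. The nearest peaks on the same strand were 56.6 kb upstream and 40.4 kb downstream of the Fzd5 window, with log2 folds of 1.46 and 1.24. For Ctnnb1 they were 357 kb upstream and 335 kb downstream, both at 1.47. Around Axin2 they were 401 kb upstream (1.82) and 409 kb downstream (2.05), and the 150 kb on either side held 0 peaks on both strands. For Tcf7l1 the nearest upstream peak was 78.5 kb away (1.05), but one at chr6:72566680-72566689 lay 7.31 kb downstream with a log2 fold of 1.98. The members nearest to that edge and to the opposite one had log2 folds of 3.41 and 1.73.

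The lengths of the gene models put the counts in proportion. In GENCODE M21, Fzd5 spans 7.19 kb with 2 exons and its longest intron is 279 bases, whereas Tcf7l1 spans 163 kb with 12 exons and its longest intron is 139 kb. Ctnnb1 spans 31.3 kb with 15 exons and a longest intron of 16.5 kb, and Axin2 spans 30.4 kb with 11 exons. Per kb of the principal mRNA, counting all peaks of the window, Ctnnb1 had 4.69 peaks, Tcf7l1 4.6, Fzd5 4.05 and Axin2 1.17. The order by peaks per kb of window was thus not kept with these mRNAs. With the shorter annotated Fzd5 mRNA of 2895 bases, the same peaks would put Fzd5 first, and Tcf7l1 still before Axin2. Peaks in introns count in these ratios as well, and how many there are in all was not analysed here. The Tcf7l1 peaks were spread over 106 kb, with no gap above 26406 bases, in a gene of 163 kb with an intron of 139 kb. If the window of 168 kb holds all of that intron at this length, the peak at chr6:72711460-72711480 and all peaks 3′ of it lie in the intron. The most enriched peak, at chr6:72633289-72633305, is among them. The ratios of Fzd5, Ctnnb1 and Tcf7l1, though similar with the principal mRNAs, therefore do not compare like with like. The Fzd5 chain of 2859 bases is a length on the genome, whereas its annotated mRNAs of 6915 and 2895 bases are spliced lengths. Except where the mRNA of 2895 bases is named, Fzd5 values here use that of 6915 bases. In Ctnnb1, 15959 bases lie between the end of the 5′ group and the next group of peaks. This is shorter than the longest intron of 16534 bases, and the single peak at chr9:120850749-120850779 lies within this distance. No part of the window without Ctnnb1 peaks exceeds 8511 bases. If the window holds all of that intron at this length, the intron must therefore contain some Ctnnb1 peaks too. Beyond these lengths, whether peaks coincide with exons or introns was not tested, because the builds differ.

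The annotated 5′ UTRs of all 4 genes exceed the median length, and those of 3 exceed the median content of G and C. That of Fzd5 is 872 bases long, longer than or equal to 97.2% of 20017 protein-coding genes, whose median is 176 bases. Those of Axin2, Tcf7l1 and Ctnnb1 are 349, 302 and 287 bases long. The G and C content of the 5′ UTR is 76.2% in Tcf7l1, 72.5% in Ctnnb1 and 68.2% in Fzd5, above the median of 60%, and 57.6% in Axin2, below it. The order by length differed from that of the median folds in placing Tcf7l1 before Ctnnb1, and the order by G and C content was another, with 4 genes only. These are properties of the gene models, and no peak was placed on a UTR.

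The fold values differed in the ratios that they stand for. After subtraction of one constant (0.24 on the log2 scale), all 47777 values were log2 ratios of whole numbers, and a reduced ratio with a denominator up to 10 sufficed for 75.6% of them. Among the 64 peaks this held for 27, namely 4 of 28 in Fzd5, 7 of 17 in Ctnnb1, 11 of 14 in Tcf7l1 and 5 of 5 in Axin2. In Fzd5 the median denominator was 35 and the largest 90, as in 299 to 90 for the peak at chr1:64783847-64783932. In Tcf7l1 the median was 5, and the most enriched peak had a ratio of 9 to 1. A pair of Tcf7l1 peaks had the ratio 2 to 1, a value shared by 4301 peaks of the list.

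All 5 peaks at 8-fold or more had a denominator up to 10. Their ratios were 9 to 1 in Tcf7l1, 25 to 3, 43 to 6 and 58 to 7 in Ctnnb1, and 57 to 7 in Fzd5. In the list, 96.4% of the 1924 peaks at 8-fold or more had a denominator up to 10. Of the 24 Fzd5 peaks with a larger denominator, 13 reached 4-fold, and their median log2 fold was 2.07. The reduced ratio does not give the counts behind it, since a common factor is lost, and whether the terms are read counts was not tested.

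**Figure D3:**
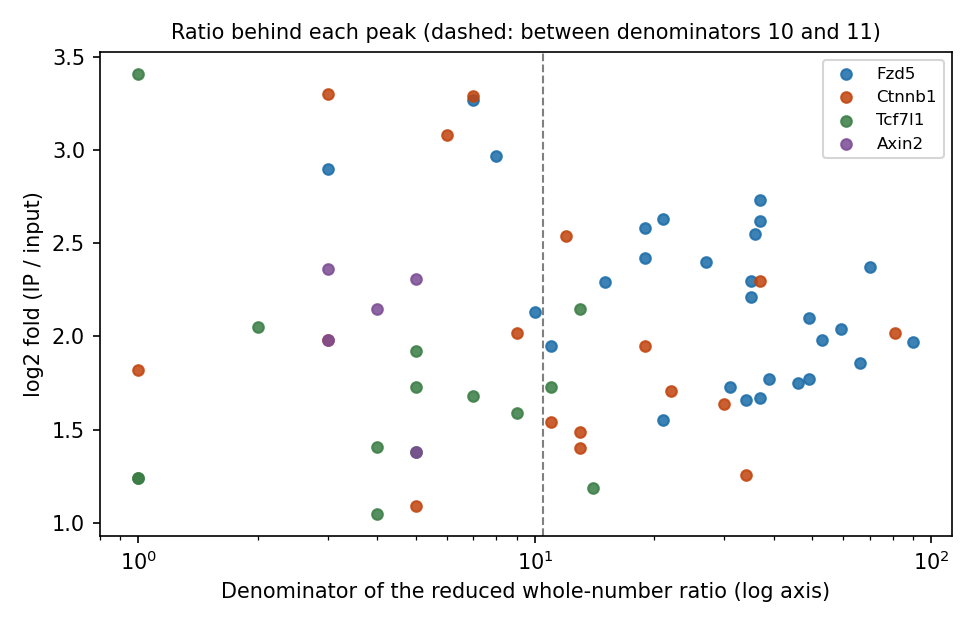
Log2 ratio of IP to input (y axis) against the denominator of the reduced whole-number ratio (x axis, log scale) for each of the 64 peaks, coloured by gene; the dashed line separates denominators up to 10 from larger ones. Most Fzd5 peaks lie to the right of the line, and all Axin2 peaks and every peak above a log2 fold of 3 lie to its left.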

How the data were processed

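eCLIP compares RNA crosslinked to a protein and recovered with an antibody with input RNA. The build mm9 and the tools cutadapt 1.18 and STAR 2.6.1b are named in the submitters' processing notes. The sources used here do not give how peaks were called and filtered, or how replicates entered the list. The deposited log2 folds (IP against input) were calculated by the authors, and 0 of them lay at or below 1 on the log2 scale. The file has no header, so the scale was read from the values. Starts were changed to count from 1.

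The members and lists were chosen with earlier results of these data known. The rule named all 4 genes, every peak of a gene with up to 5, and otherwise the 5 highest with the first and last. The remaining peaks were given as runs along the strand, chosen after the values were seen. A stretch joins same-strand peaks across gaps of up to 1000 bases. Ratios were sought with denominators up to 1000 (relative tolerance 2e-08), after the constant that makes the most frequent value a ratio of 2 to 1. Gene model lengths came from GENCODE M21 (GRCm38), using the principal transcript by its APPRIS tag and then the longest, with 5′ UTRs of at least 20 bases. No coordinates were converted. No test of IP against input could be made. Intervals are exact Poisson for densities, Wilson for shares and binomial (order statistics) for medians, at 95%. The ratio search, the choice of peaks in a window, joining and merging were tested on simulated data. There the ratio search was given its constant, and its denominators were smaller than the largest in the list. The choice of the constant, the intervals and the gene model lengths were not tested in this way. Python 3.11.15, numpy 2.4.6, scipy 1.17.1, pandas 2.3.3 and matplotlib 3.10.9 were used. Alternatives covered fold, width, merging, overlap, window extension and strand.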

Additional observations from a re-analysis of the deposited data

How the results depend on the processing

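Of 48 alternative values, 34 stayed within 1.5 times the count or within the interval of the value. Counts for Fzd5, Ctnnb1, Tcf7l1 and Axin2 were 17, 7, 3 and 3 at 4-fold or more and 1, 3, 1 and 0 at 8-fold or more. The opposite strand gave 0, 0, 0 and 0. Merging peaks within 50 bases took Fzd5 from 28 to 12 peaks, since most of its peaks touch or nearly touch. With the limit at 8-fold, the share of 46.9% became 7.81%. Extending the windows by 10 kb raised Tcf7l1 from 14 to 17 peaks and left the other counts as they were. No same-strand peak lay within 10 kb of the other windows, so their counts and medians could not change. A merged peak took the highest fold of its parts, so medians after merging are not the same measure. The medians of the 4 genes stayed within their intervals under merging, a minimum width of 20 bases, extension and weighting by width. For Axin2 this was fixed in advance, since its interval of 1.38 to 2.36 is the full range of its peaks. Its smallest gap was 179 bases, so merging could not change it either. No paired analysis was possible because the 1 list does not separate the libraries, and leaving out a replicate was likewise impossible. Depth is unknown, and what it limits was not measured.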
